A study of Mus musculus with 23 samples.

Results

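A group of 10 genes was followed in the lungs of adult mice, namely Usp9x, Atp7a, Ston1, Rapgef2, Cmip, Snrk, Qk, Dstn, Gm43300 and Gm38393. The members were chosen by measured values, the size of their fall after ovalbumin (OVA) challenge in the same libraries that are described here, and are 10 of the 35322 genes listed. Their falls after OVA are therefore given as a description without a test. All 10 passed the filter on low values, at least 0.5 RPM (reads on the gene per 1000000 reads of the library) in at least 4 of 23 libraries, which the saline libraries alone could meet. All animals were Balb/c offspring described as female and 13 weeks old, and the groups were Sham (7 offspring of dams given saline, challenged with saline), PM (7 offspring of dams given PM2.5 into the nose before mating, in gestation and up to weaning, challenged with saline), Sham-OVA (5 offspring of saline dams, sensitised to and challenged with OVA) and PM-OVA (4 offspring of PM2.5 dams, sensitised to and challenged with OVA). OVA sensitisation and challenge serves as a model of allergic airway disease, and the design asked whether maternal PM2.5 exposure changes how the adult lung responds to it. Each library came from a piece of 1 lobe of a right lung of 1 animal, and nothing in the labels says which offspring shared a dam. In the labels the lung carries the abbreviation RML, and the control challenge is called PBS.

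The name "almost lost" was borne out for some of the genes only. In Sham offspring the mean level after OVA was 0.409% of the saline mean for Atp7a, 1.12% for Ston1 and 1.59% for Usp9x. It was 16.5% for Qk and 15.4% for Dstn, so these genes were lowered and not lost. In PM offspring the means stood between 0% of saline for Gm38393 and 22.5% for Dstn, and one library, PM-OVA replicate 1, kept 69.0% of the saline mean of Cmip.

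As background, the named members act in unrelated processes. USP9X removes ubiquitin from proteins and so spares them from degradation, ATP7A pumps copper into the secretory pathway and out of the cell, and stonin 1 is an endocytic adaptor. RAPGEF2 activates the small GTPase Rap1 and CMIP is an adaptor of T cell signalling, whereas SNRK is a kinase of the AMPK family. Quaking (Qk) binds RNA and steers splicing and mRNA stability, and destrin (Dstn) takes actin filaments apart. Most of these genes are transcribed in many cell types of the lung. Unsorted lung tissue was sequenced, so fewer cells of a type and less RNA per cell cannot be told apart in any of the values below.

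Levels are given as RPM, which take no account of gene length. Replicate numbers are those of the sample titles, and most OVA samples carry a different number in their library names. The reads on genes ranged from 13089691 to 17393579 in the 14 saline libraries and from 2298645 to 12355561 in the 9 OVA libraries. The shallowest were replicate 3 of Sham-OVA together with replicates 3 and 4 of PM-OVA, with 3218603 to 7531999 total reads compared with 12550857 to 14883582 in the other 6 OVA libraries. Sham replicate 1 carried 222 RPM of 5 Y-linked genes against at most 0.132 RPM in any other library, which goes against the description of the animals as female. Leaving it out moved the log2 fold changes of the members in Sham offspring by -0.01 to 0.16. Some genes that every cell uses were listed at 0 in all libraries (mt-Co2, mt-Atp6 and mt-Co3), so an exact 0 below means only that the gene was listed at 0.

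Usp9x lies on the X chromosome (GRCm38 chrX:13071498-13173328, plus strand) and is the longest member, with 15051 exonic bases. In Sham it ranged from 24.4 to 77.0 RPM, with a median of 54.7 RPM. The Sham-OVA libraries, replicates 1 to 5, held 1.88, 0.978, 0, 0.876 and 0.438 RPM of Usp9x. All 5 lay below the lowest Sham library by a wide margin. In PM it ranged from 44.1 to 71.3 RPM, with a median of 62.3 RPM. The PM-OVA libraries, replicates 1 to 4, held 12.4, 0.773, 1.59 and 0.363 RPM, so that replicate 1 stood well above the other three and still below every PM library. The fitted change of Usp9x was -5.40 ± 0.36 (SE) for Sham offspring and -4.70 ± 0.54 for PM offspring, a log2 fold change on the log2(RPM + 0.5) scale that is used throughout and that understates the change of low genes. In PM offspring it was -3.91 without the 2 shallow PM-OVA libraries. Such a fit, here and below, keeps only replicates 1 and 2 of PM-OVA.

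Atp7a is the other X-linked member (chrX:106027276-106124926, plus strand, 8734 exonic bases). Sham libraries ranged from 7.24 to 31.2 RPM, with a median of 24.9 RPM, compared with 0.0695, 0.226, 0, 0.159 and 0 RPM in Sham-OVA replicates 1 to 5. Pooled over each group this was 2708 reads of Atp7a in Sham and 6 reads in Sham-OVA, a 213-fold lower share of the reads (95% exact interval 97.6 to 580.3, counting error only). PM libraries ranged from 19.8 to 30.8 RPM, with a median of 27.7 RPM, compared with 1.75, 0.232, 0 and 0 RPM in PM-OVA replicates 1 to 4. Both shallow PM-OVA libraries were listed at 0, and replicate 1 was again the highest. Its log2 fold changes were -5.14 ± 0.33 (SE) for Sham offspring and -5.08 ± 0.35 for PM offspring, the latter -4.40 without the 2 shallow PM-OVA libraries. Its promoter window is shown because Atp7a and Ston1 fell most by the share of their saline level that remained among the 7 members with a RefSeq window. It spans chrX:106026974-106027273 of GRCm38.p6 on the plus strand, 250 bases before to 50 bases after the start, with the letters of a GC box (GGGCGG on either strand) in capitals. In the windows below, capitals also mark a CCAAT box, the 5 letters of its name on either strand.
Atp7a: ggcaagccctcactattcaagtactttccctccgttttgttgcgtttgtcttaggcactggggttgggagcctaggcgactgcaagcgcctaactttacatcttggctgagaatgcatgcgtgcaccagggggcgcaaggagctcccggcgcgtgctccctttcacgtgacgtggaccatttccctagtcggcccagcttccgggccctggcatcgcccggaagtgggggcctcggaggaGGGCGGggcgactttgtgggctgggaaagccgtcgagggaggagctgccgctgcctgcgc

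Ston1 (chr17:88597684-88662586, plus strand, 4521 exonic bases) had the lowest mean log2 fold change of both cohorts of all 16795 genes tested with the pseudocount of 0.5. With a pseudocount of 0.1 Atp7a was lower, at -6.89 and -6.58 against -6.22 and -6.52 for Ston1. The Sham libraries of Ston1 ranged from 17.2 to 83.8 RPM, with a median of 50.4 RPM. After OVA, Sham-OVA replicates 1 to 5 held 0.695, 0.602, 0.621, 0.717 and 0.146 RPM. Replicates 1 to 4 lay close together, and replicate 5 stood below them. In PM the range was 33.1 to 71.5 RPM, with a median of 59.2 RPM, and PM-OVA replicates 1 to 4 held 8.0, 0.618, 0.133 and 0 RPM. Ston1 thereby changed by -5.46 ± 0.32 (SE) on the log2 scale in Sham offspring and by -5.41 ± 0.60 in PM offspring. Without PM-OVA replicate 1, which kept more of the gene than the other three, the latter was -6.31, and without the 2 shallow PM-OVA libraries it was -4.18. The RefSeq window of Ston1 (chr17:88626305-88626604, plus strand, GRCm38.p6, capitals as above) lies inside the GENCODE gene and holds 2 CpG dinucleotides, against a median of 7 over the 32851 windows of this length.
Ston1: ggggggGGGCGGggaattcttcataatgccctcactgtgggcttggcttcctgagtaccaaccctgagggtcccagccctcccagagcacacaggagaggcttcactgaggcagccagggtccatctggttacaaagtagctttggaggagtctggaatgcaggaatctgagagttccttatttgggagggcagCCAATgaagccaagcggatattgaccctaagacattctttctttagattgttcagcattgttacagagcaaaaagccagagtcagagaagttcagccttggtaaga

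Rapgef2 (chr3:79062516-79286517, minus strand, 14051 exonic bases) ranged from 34.4 to 68.5 RPM, with a median of 49.7 RPM in Sham. It stood at 2.71, 1.88, 1.55, 2.07 and 0.803 RPM in Sham-OVA replicates 1 to 5, without overlap with Sham. In PM it ranged from 40.7 to 56.7 RPM, with a median of 53.1 RPM, and in PM-OVA replicates 1 to 4 it stood at 22.1, 3.40, 0 and 0 RPM. The PM-OVA libraries thus ran from 0 in both shallow libraries to 42.9% of the saline mean in replicate 1. Rapgef2 had log2 fold changes of -4.45 ± 0.23 (SE) in Sham offspring and -4.58 ± 0.81 in PM offspring. In PM offspring it was -5.71 without PM-OVA replicate 1. It was -2.46 without the 2 shallow PM-OVA libraries, which leaves replicate 1, the highest, and replicate 2 alone.

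Cmip (chr8:117257064-117459430, plus strand, 6495 exonic bases) ranged from 9.96 to 26.3 RPM, with a median of 19.9 RPM in Sham and stood at 1.60, 1.73, 0, 1.83 and 1.31 RPM in Sham-OVA replicates 1 to 5. In the 4 deeper Sham-OVA libraries the level was even, and the shallow one was listed at 0. In PM it ranged from 16.5 to 23.8 RPM, with a median of 22.4 RPM and in PM-OVA replicates 1 to 4 it stood at 15.1, 1.93, 0.797 and 0.182 RPM. Replicate 1 came close to the lowest PM library, at 16.5 RPM, and the groups did not overlap. For Cmip the fitted log2 change was -3.64 ± 0.36 (SE) in Sham offspring and -3.21 ± 0.61 in PM offspring, the latter -4.10 without PM-OVA replicate 1 and -1.85 without the 2 shallow PM-OVA libraries.

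Snrk (chr9:122117266-122169702, plus strand, 5780 exonic bases) ranged from 37.7 to 119 RPM, with a median of 63.4 RPM in Sham, where replicate 1 held the highest value. Sham-OVA replicates 1 to 5 held 2.02, 1.5, 15.5, 1.67 and 3.07 RPM. Unlike the other members, Snrk was highest in the shallow library, replicate 3. It ranged from 31.8 to 83.4 RPM, with a median of 72.0 RPM in PM and PM-OVA replicates 1 to 4 held 14.4, 2.47, 10.4 and 8.35 RPM. Only replicate 2 of PM-OVA lay within the range of the 4 deeper Sham-OVA libraries. A model without assigned function inside Snrk on the same strand, 4632418H02Rik, also named once its values were known, had means of 0.940 RPM in Sham and 0.0458 RPM in Sham-OVA and was listed at 0 in all PM-OVA libraries. Snrk itself changed by -4.09 ± 0.44 (SE) on the log2 scale in Sham offspring and by -2.98 ± 0.38 in PM offspring, the former -4.63 without Sham-OVA replicate 3.

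Qk (chr17:10202601-10319854, minus strand, 14242 exonic bases) was the member with the most reads. Its Sham libraries ranged from 390.5 to 643 RPM, with a median of 577 RPM, and Sham-OVA replicates 1 to 5 held 131, 80.3, 13.4, 132 and 107 RPM. The shallow library, replicate 3, stood far below the 4 deeper ones. The PM range was 428 to 624 RPM, with a median of 617 RPM, and PM-OVA replicates 1 to 4 held 255, 131, 29.7 and 32.3 RPM. Both cohorts had a similar log2 fold change of Qk, -2.93 ± 0.44 (SE) for Sham and -2.94 ± 0.48 for PM. Without the 3 shallow libraries it was -2.33 and -1.67. The window of Qk (chr17:10319312-10319611, minus strand, GRCm38.p6) is shown because it lies at the other end from that of Ston1, with 57 CpG dinucleotides and 5 GC boxes (capitals).
Qk: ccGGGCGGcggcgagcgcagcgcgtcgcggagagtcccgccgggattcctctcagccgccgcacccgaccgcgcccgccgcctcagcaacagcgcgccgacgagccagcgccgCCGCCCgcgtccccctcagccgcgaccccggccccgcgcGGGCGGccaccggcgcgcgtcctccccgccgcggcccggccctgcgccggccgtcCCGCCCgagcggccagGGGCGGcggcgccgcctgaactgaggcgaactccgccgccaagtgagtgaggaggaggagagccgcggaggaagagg

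Dstn (chr2:143915320-143943324, plus strand) is the shortest member, with 1911 exonic bases. In Sham it ranged from 151 to 209.6 RPM, with a median of 183 RPM. Sham-OVA replicates 1 to 5 held 43.0, 39.1, 1.86, 32.3 and 24.8 RPM of Dstn. The shallow library, replicate 3, held 6 reads where the Sham mean would have given 591. In PM it ranged from 176 to 286 RPM, with a median of 196 RPM, and PM-OVA replicates 1 to 4 held 128, 53.2, 1.99 and 4.18 RPM. The deeper replicates 1 and 2 lay far above the shallow replicates 3 and 4. Dstn had log2 fold changes of -3.18 ± 0.55 (SE) in Sham offspring and -3.62 ± 0.84 in PM offspring, and without the 3 shallow libraries they were -2.40 and -1.31. The Dstn window (chr2:143915081-143915380, plus strand, GRCm38.p6), shown as that of the shortest gene, holds 31 CpG dinucleotides and 4 GC boxes (capitals).
Dstn: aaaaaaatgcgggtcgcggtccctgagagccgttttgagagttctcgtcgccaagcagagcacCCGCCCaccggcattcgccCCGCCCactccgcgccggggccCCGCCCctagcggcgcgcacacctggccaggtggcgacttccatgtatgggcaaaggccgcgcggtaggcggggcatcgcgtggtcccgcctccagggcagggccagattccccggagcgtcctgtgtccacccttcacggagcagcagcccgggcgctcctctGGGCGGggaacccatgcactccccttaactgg

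Gm43300 (chr3:119727748-119729790, minus strand) is a single-exon model without an assigned function that lies in an intron of Ptbp2 on the same strand and shares no exon with it. In Sham it ranged from 2.22 to 13.6 RPM, with a median of 6.02 RPM, in all 918 reads, compared with 1 read in the 5 Sham-OVA libraries together. This is a 433-fold lower share of the reads, with a 95% exact interval of 77.5 to 17111. PM ranged from 4.15 to 6.60 RPM, with a median of 6.24 RPM, in all 693 reads, compared with 6 reads in PM-OVA, all of them in replicate 1, a 39.5-fold lower share (18.1 to 108). Ptbp2, which encodes a splicing regulator and was named only once its values were known, stood at 62.2 ± 16.5 RPM (SD, n = 7) with saline and 15.5 ± 6.74 RPM (n = 5) with OVA in Sham offspring, and at 51.1 ± 5.80 RPM (n = 7) and 16.3 ± 14.5 RPM (n = 4) in PM offspring.

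Gm38393 (chr7:59974149-60005064, minus strand, 5216 exonic bases) is a predicted gene at the imprinted Snrpn locus and shares exonic bases on the same strand with Snrpn (589), Snurf (216) and the long noncoding Snhg14 (27). Sham libraries ranged from 1.10 to 4.72 RPM, with a median of 2.06 RPM, and PM libraries from 1.70 to 2.37 RPM, with a median of 1.93 RPM. In each of the 9 OVA libraries it was listed at 0. Against a floor of 3 reads over each OVA group, its share of the reads was at least 48.4-fold lower in Sham and at least 26.8-fold lower in PM offspring. How reads on shared exons were assigned is not given in the sources used here, and the value of Gm38393 is uncertain for that reason. Snhg14 went from 8.82 ± 2.35 RPM in Sham to 0.668 ± 0.463 RPM in Sham-OVA, with log2 fold changes of -3.07 ± 0.29 (SE) in Sham offspring and -2.65 ± 0.47 in PM offspring. Snrpn had a mean of at most 0.267 RPM in any group and Snurf was listed at 0 throughout, so neither was tested.

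**Figure D1:**
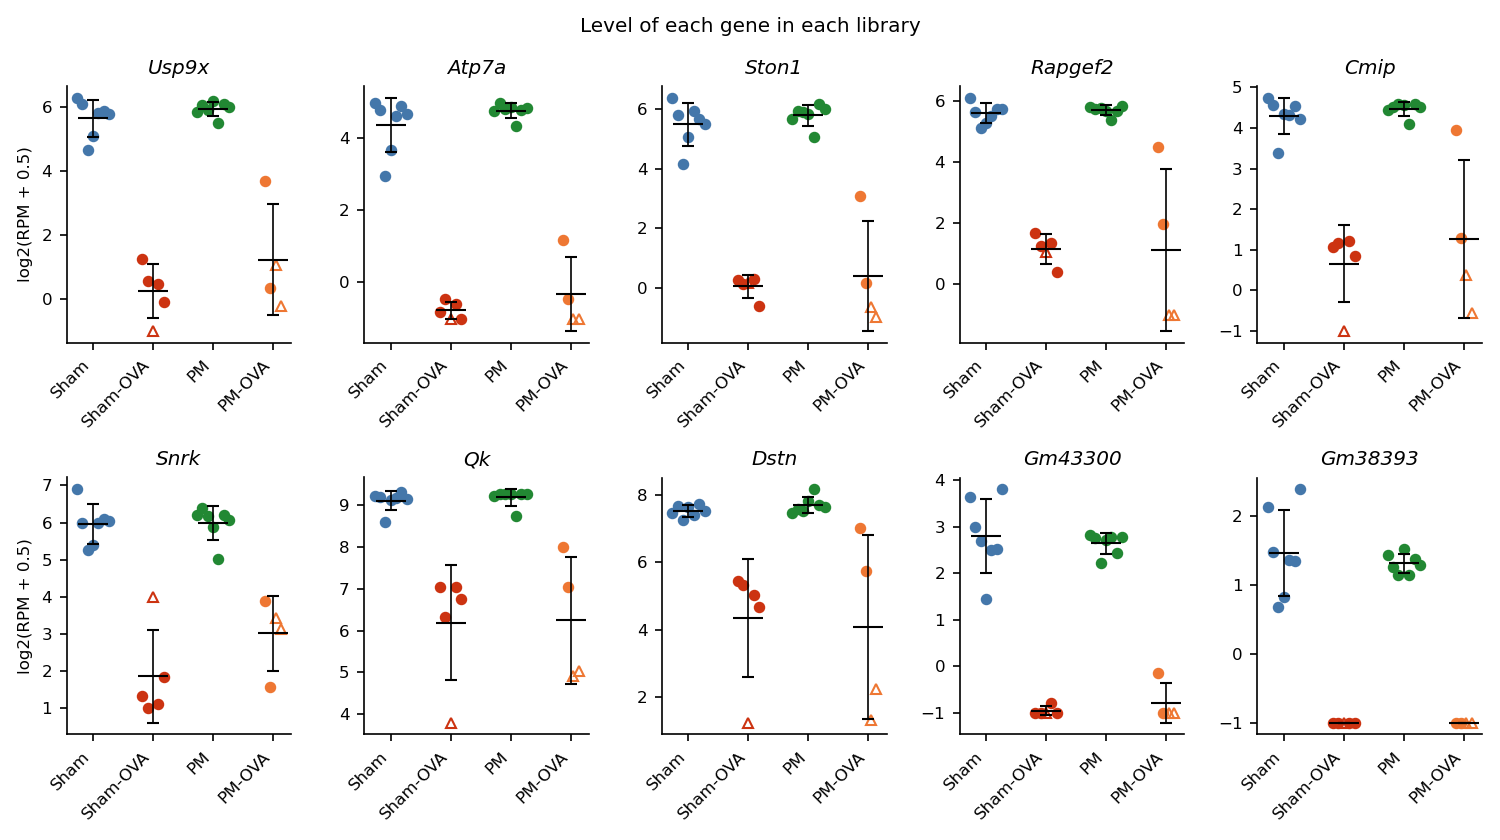
Level of the 10 genes in each library as log2(RPM + 0.5), by group. Circles are libraries and open triangles the 3 shallow OVA libraries, and bars give mean ± SD. For each gene every OVA library lies below every saline library of its cohort, and the shallow libraries lie at the bottom for Qk and Dstn and near the top for Snrk.

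In both cohorts the OVA and saline libraries did not overlap for 10 of the 10 genes. These values chose the genes, so nothing is read from that count. Over all 16795 genes tested, the Sham-OVA libraries lay below all Sham libraries for 35% and the PM-OVA libraries below all PM libraries for 28.6%. By limma with Benjamini-Hochberg adjustment, 47.5% of the genes were called lower and 20.6% higher after OVA in Sham offspring, and 45.2% lower and 20.1% higher in PM offspring. The median log2 fold change of the members was -3.93 in Sham and -3.53 in PM offspring, against -0.48 and -0.43 over all genes tested. With Gm38393 at its bound in place of the fitted value, the medians were -4.27 and -4.10.

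By the mean of both cohorts at this pseudocount, Ston1, Atp7a and Usp9x ranked 1, 3 and 4 among the 16795 genes tested and Rapgef2 ranked 25. The other members ranked from 103 (Gm43300) to 630 (Gm38393). The members are thus not the 10 genes with the largest falls: 620 genes outside the group fell at least as much as Gm38393 on this scale. Outside the group the lowest means belonged to Klf4 (-5.30), a transcription factor of epithelium and endothelium, Myh6 (-4.96), a myosin heavy chain of cardiac muscle, and Akap12 (-4.96), a scaffold for protein kinase A. Next to Gm38393, at -2.38, stood Gm42890, the heart transcription factor Tbx20 and Gm29394, all with a mean of -2.38.

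**Figure D2:**
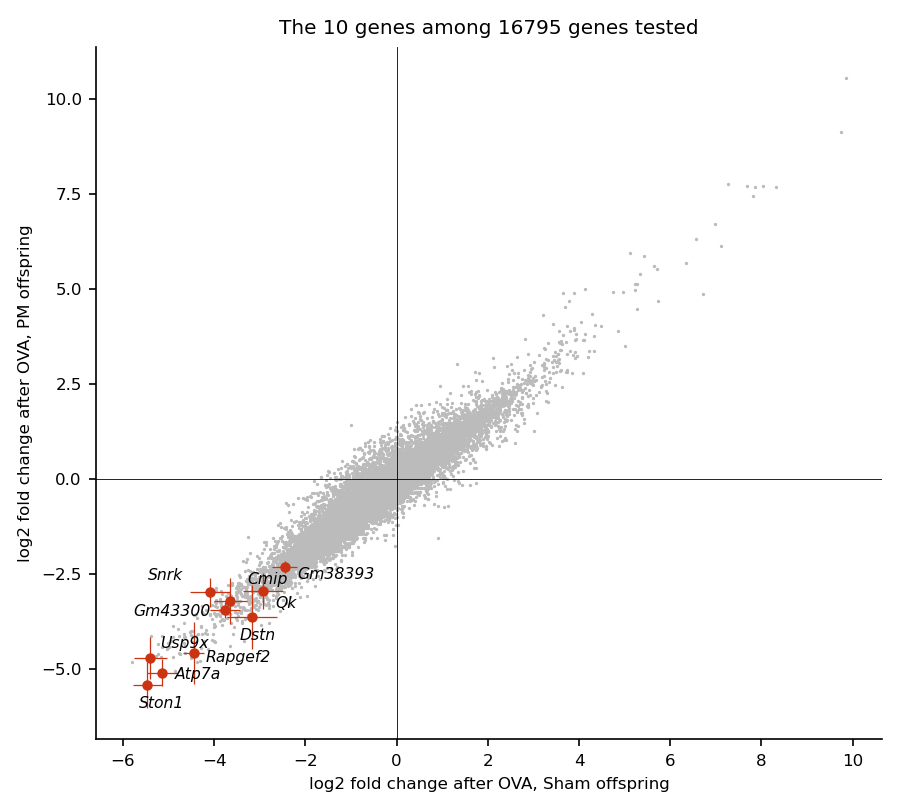
Fold change after OVA in Sham (x) and PM offspring (y), both as log2 on the log2(RPM + 0.5) scale. Grey points are all 16795 genes tested and red points the 10 genes, with bars of 1 SE. The 10 genes lie at the lower left, between -2.45 and -5.46 in Sham and -2.31 and -5.41 in PM offspring, and other genes lie among them.

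Levels of different genes were compared only per kilobase of exon. In Sham, Dstn was the most abundant member at 96.1 ± 11 RPM per kb (SD, n = 7), followed by Qk at 39.4 ± 5.61. Snrk at 11.3 ± 4.58 and Ston1 at 10.9 ± 4.67 did not differ beyond their spread. Gm43300, Usp9x, Rapgef2, Cmip and Atp7a lay close together between 2.54 and 3.61 RPM per kb, and Gm38393 was the lowest at 0.475 ± 0.256. The 2 most abundant genes, Dstn and Qk, were also those that kept the largest share of their mean level in the Sham-OVA group. In the PM-OVA group the largest shares were those of Dstn (22.5%), Cmip (20.6%) and Qk (19.0%).

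The OVA libraries did not lower the 10 genes to the same extent. The median difference of the members from the saline mean of their cohort lay between -3.86 and -5.32 on the log2 scale in the 5 Sham-OVA libraries and between -3.69 and -5.25 in PM-OVA replicates 2 to 4, whereas it was -2.17 in PM-OVA replicate 1. The same library had the smallest shift of all genes, with a median of -0.09 against -0.19 to -1.03 in the other 8 OVA libraries. Its summed level of 11 type 2 response genes was 10053 RPM, the lowest of the OVA libraries, and every saline library held at most 321 RPM. Its summed levels of 10 lung epithelial markers (30806 RPM) and of 7 nuclear-retained RNAs (2915 RPM) were the lowest and the highest of the OVA libraries. Its summed level of the mitochondrial genes, 14863 RPM against 7120 to 10045 RPM in the other OVA libraries, was the highest. The part of these differences in the members' values was not tested. Without PM-OVA replicate 1, the log2 fold change in PM offspring was -5.53 for Usp9x and -4.60 for Dstn.

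Depth and the members moved together among the OVA libraries, and not in 1 direction only. In the 3 shallow libraries Dstn stood at 1.86 to 4.18 RPM against 24.8 to 128 RPM in the 6 deeper ones. The same split was seen for Qk, at 13.4 to 32.3 against 80.3 to 254.6 RPM, and for Cmip, at 0 to 0.797 against 1.31 to 15.1 RPM. Snrk went the other way, with 8.35 to 15.5 RPM in the shallow libraries against 1.5 to 3.07 RPM in 5 of the deeper ones and 14.4 RPM in PM-OVA replicate 1. Reads of all libraries thinned to 1 depth of 3218603 gave log2 fold changes of -3.16 and -3.72 for Dstn and -4.07 and -3.06 for Snrk. The largest shift of a member was that of Cmip in PM offspring, from -3.21 to -3.53. Random thinning keeps the expected RPM of a gene, so it cannot show why the shallow libraries differ. At the saline mean of the cohort, a member would have had 7.97 to 8768 reads in an OVA library. Of the 90 pairs of a member and an OVA library, 25 were at 0 reads, where the saline mean would have given 7.97 to 388 reads. Reads on genes made up 71.4% to 78.6% of the total in the shallow libraries and 77.8% to 85.7% in the deeper ones. This and other ways in which the shallow libraries may differ from the deeper ones were not tested.

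**Figure D3:**
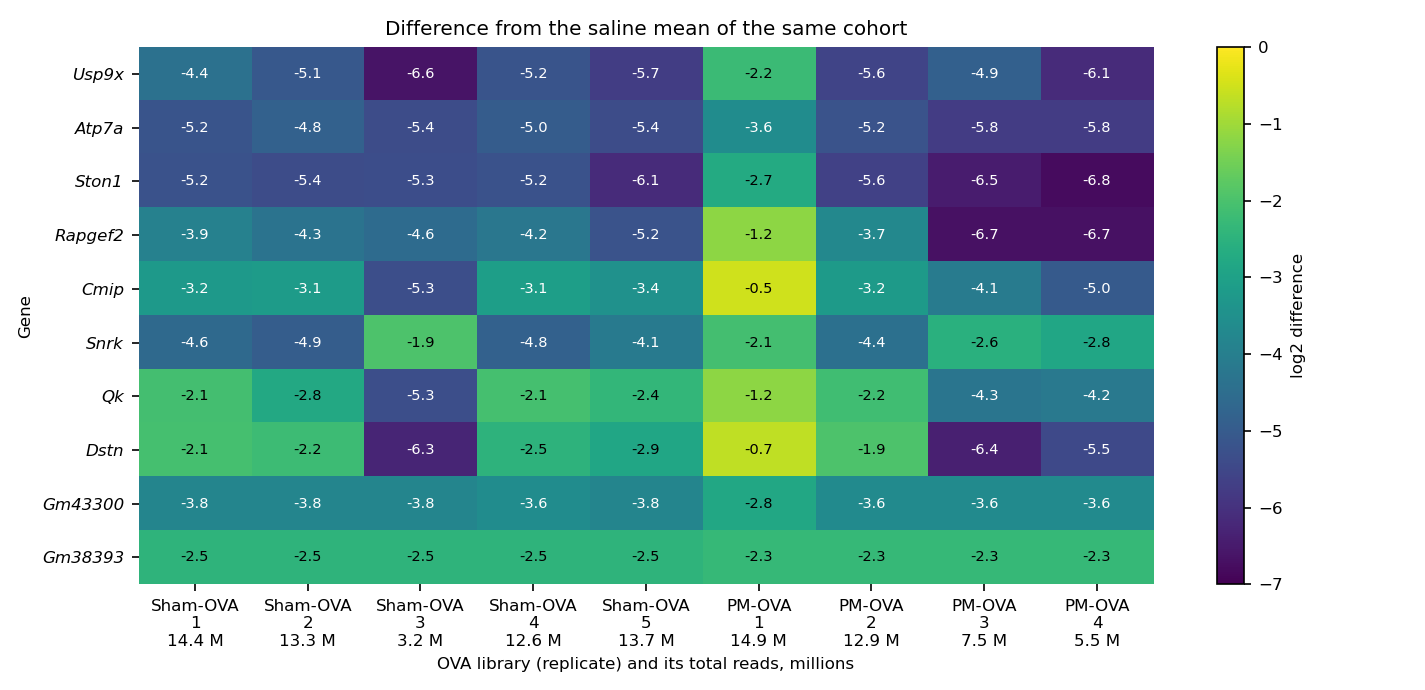
Difference of each OVA library from the saline mean of its cohort, in log2(RPM + 0.5), for the 10 genes (rows) and 9 libraries (columns, with replicate number and total reads). PM-OVA 1 is the least lowered column for every gene except Snrk and Gm38393, and for Gm38393 the values only mark a gene at 0 in every OVA library.

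Saline libraries varied together as well. Sham replicate 3 held the lowest value of 9 of the 10 members in its group, and replicate 1 the highest of 6. Among PM libraries, replicate 5 held the lowest value of 8 members, and the highest of Dstn. The summed level of 12 capillary endothelial markers was lowest in the same libraries, at 4355 RPM in Sham replicate 3 (other Sham libraries 5462 to 9702 RPM) and 3089 RPM in PM replicate 5 (other PM libraries 7795 to 9469 RPM). The summed level of the mitochondrial genes was highest in these libraries, at 30094 RPM in Sham replicate 3 (other Sham libraries 7746 to 10715 RPM) and 16945 RPM in PM replicate 5 (other PM libraries 9488 to 11914 RPM). After OVA the endothelial sum was 4686 to 5615 RPM in Sham-OVA and 5026 to 5928 RPM in PM-OVA. Of these 12 markers 7 were called lower and 2 higher in each cohort, none was at 0 in all libraries, and the part of endothelial cells in the members' values was not tested.

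Other cell type lists moved with OVA too. The summed level of 8 plasma cell markers was 365 to 570 RPM in saline libraries of Sham offspring and 7494 to 12715 RPM in Sham-OVA, and in PM offspring it was 402 to 544 RPM and 6817 to 11144 RPM. That of 10 macrophage and monocyte markers was 270 to 439 and 1820 to 2751 RPM in Sham offspring and 371 to 547 and 1700 to 2275 RPM in PM offspring. Neither of these lists overlapped between OVA and saline libraries. Of the 8 plasma cell markers 6 were called higher and 1 lower in each cohort. Of the 10 macrophage and monocyte markers 7 were higher in Sham and 6 in PM offspring, and 1 was lower in each. The 10 markers of fibroblasts and smooth muscle summed to 2162 to 2552 RPM in Sham and 2122 to 2507 RPM in Sham-OVA, and to 2180 to 4109 RPM in PM and 2102 to 2771 RPM in PM-OVA. Eosinophil markers (8 genes) rose from at most 15.8 RPM in a saline library to 19.6 to 48.3 RPM in the OVA libraries, with 4 called higher and 1 lower of the 5 tested in each cohort. The sums over fibroblast markers overlapped between groups, and those over eosinophil markers did not. Single markers changed under the overlapping sum: 4 of the 10 fibroblast and smooth muscle markers were called lower and 2 higher in each cohort. The 9 T and B lymphocyte markers summed to 91.7 to 309 RPM in Sham and 296 to 697 RPM in Sham-OVA, and to 97.6 to 221 RPM in PM and 288 to 418 RPM in PM-OVA. The 10 lung epithelial markers, which define the labelled tissue, were high in every library, at 26943 to 59536 RPM in Sham and 36969 to 65885 RPM in Sham-OVA, and at 33706 to 45899 RPM in PM and 30806 to 72610 RPM in PM-OVA. The epithelial sums overlapped between OVA and saline in both cohorts, and the lymphocyte sums in Sham offspring. Of the epithelial markers 4 were called higher and 0 lower in each cohort. Of the lymphocyte markers 6 were higher in Sham and 5 in PM offspring, and 1 was lower in each. The 7 nuclear-retained RNAs summed to 3196 to 8994 RPM in Sham and 1032 to 1677 RPM in Sham-OVA, and to 3376 to 6782 RPM in PM and 1006 to 2915 RPM in PM-OVA. Of these RNAs 4 were called lower and 0 higher in Sham offspring, and 5 and 1 in PM offspring. Over all genes 47.5% and 45.2% were called lower and 20.6% and 20.1% higher in Sham and PM offspring. No marker of these lists was at 0 in all libraries, and the part of cell mixture or RNA quality in the falls was not tested.

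The genes were not chosen on the comparison by maternal exposure, which was therefore tested. Between PM and Sham, limma called 0 of the 10 members, beside 0% of all 16795 genes tested (731 at an unadjusted p under 0.05), and DESeq2 and edgeR on the recovered reads called 0 genes as well. The PM mean on the log2 scale of 8 members was higher and that of Gm43300 and Gm38393 lower, with log2 differences of -0.15 to 0.40. The largest was that of Atp7a at 0.40 (95% interval -0.16 to 0.95, adjusted p = 0.898 by limma). Dstn had the smallest p of the members in a two-sided exact permutation test, p = 0.137, with a difference of 0.18 (95% interval -0.05 to 0.40), where 2 of 7 PM libraries lay above all Sham libraries.

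Between PM-OVA and Sham-OVA, limma again called 0 of the 10 members beside 0% of all genes (313 at an unadjusted p under 0.05), and their adjusted p was 1. The genes were chosen to be low in both of these groups, and Gm38393, at 0 in all 9 OVA libraries, and Gm43300, at 0 in 7 of them, could hardly have been called. DESeq2 called 1 gene of the table and edgeR 0, and neither called a member. Snrk differed most, higher by 1.16 on the log2 scale in PM-OVA (95% interval -0.39 to 2.70), with p = 0.175 in a two-sided exact permutation test over 126 splits, the smallest of the members. Usp9x was higher by 0.99 (95% interval -0.71 to 2.68, exact permutation p = 0.365), and 1 of 4 PM-OVA libraries, replicate 1, lay above all Sham-OVA libraries. For Dstn the difference was -0.26 with an interval of -3.12 to 2.59, so that even a several-fold difference was not detectable in these groups. The smallest p that the test allows is 0.00794. Whether the size of the fall differed between cohorts was not tested, because the falls chose the genes.

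Over all genes, longer genes were lowered more. Across the 16503 tested genes with a length, exonic length and the log2 fold change had a Spearman correlation of -0.32 in Sham and -0.35 in PM offspring, a description across genes, which are not independent replicates. In Sham offspring the median log2 fold change went from 0.20 in genes under 1 kb to -0.63 at 4 to 8 kb and -1.28 over 16 kb. The trend was seen in each of the 9 OVA libraries. It was weakest in PM-OVA replicate 1 (0.22 to -0.63) and steepest in the 3 shallow libraries. These went from -0.35 to -2.05 (Sham-OVA replicate 3), 0.26 to -1.65 (PM-OVA replicate 3) and -0.11 to -1.82 (PM-OVA replicate 4). The steepest of the deeper libraries was PM-OVA replicate 2 (0.54 to -1.02). Of the 10 members 8 were longer than the median gene of 4067 exonic bases, and the exceptions were Dstn and Gm43300. By the longest annotated transcript (of those with a 3′ UTR, where there were any), 6 of 10 were above the median of 2995 bases. By the length of the 3′ UTR, 4 of 9 were above the median of 1178 bases. Transcript length had Spearman correlations of -0.37 in Sham and -0.40 in PM offspring with the log2 fold change.

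Within their length classes the members stayed at the low end, as their choice requires. Usp9x, Atp7a and Rapgef2 lay within the lowest 0.523% of the 2295 genes of 8 to 16 kb in both cohorts, and Qk at the lowest 2.88% in Sham and 2.66% in PM offspring. Ston1 was the lowest of the 5785 genes of 4 to 8 kb in both. Dstn, in a class whose median was 0.07 in Sham offspring, lay at the lowest 0.830% of 2169 genes. After the trend with length was removed, Usp9x stood at -4.66 and -3.96, Qk at -2.21 and -2.23, and Dstn moved the other way to -3.58 and -4.02. The cause of the length trend was not tested.

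**Figure D4:**
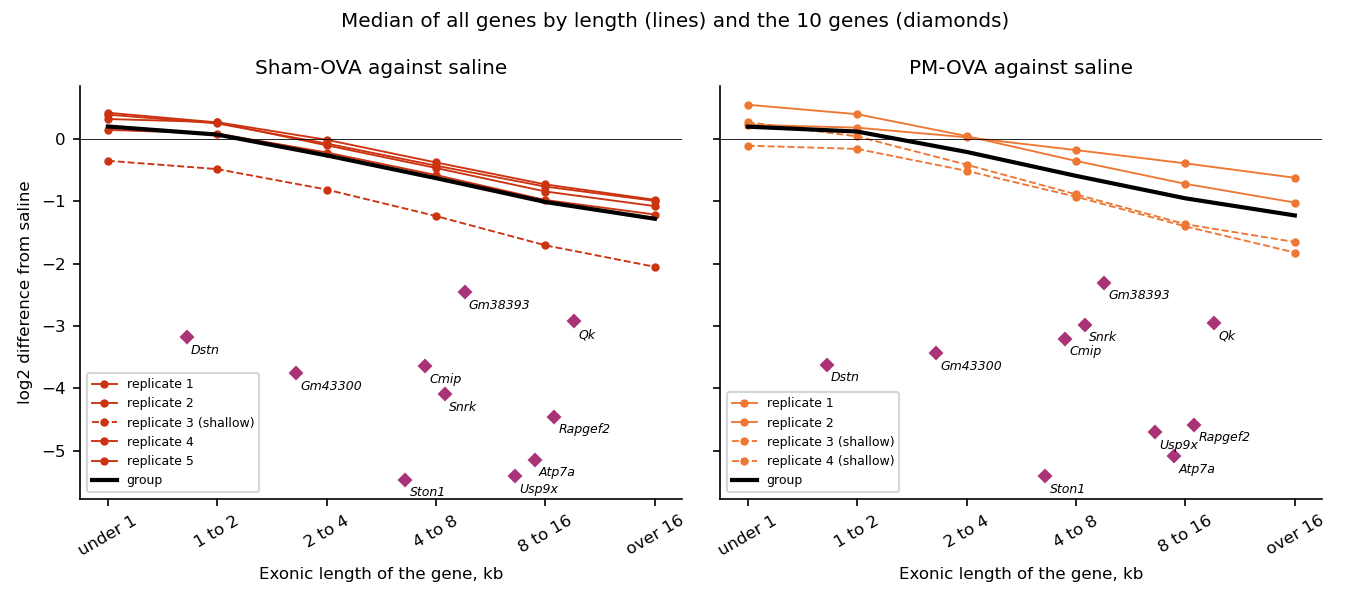
Log2 difference from saline (y) by exonic length class in kb (x), for Sham-OVA (left) and PM-OVA (right). Thin lines give the median of all genes of a class in each OVA library (dashed for the shallow ones), the thick line the group, and diamonds the 10 genes, spread sideways within their class for legibility. The lines fall with length in each library, and the diamonds lie below the group line of their class, at -2.31 to -5.46.

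Other sequence features were less even across the group. The GC content of the longest annotated transcript was below the median of 50.1% in 7 of 10 members, from 31.3% in Gm43300 to 58.4% in Cmip. Of the 9 members with an annotated 3′ UTR, 5 held the AU-rich motif ATTTA, against 68.4% of 14740 genes, and 3 held ACTAAC or ACTAAT, the core that Quaking binds, against 33.5%, among them Qk itself with 5 copies. Promoter windows were given by RefSeq for 7 members. The first listed window held a GC box in 6 of the 7, against 35.7% of all 32851 windows, a CCAAT box in 2 of the 7, against 37.4%, and a TATA box (TATAAA on either strand) in none, against 13.6%. These shares count every listed window. Over all 10 listed windows of the 7 members, 7 held a GC box, 3 a CCAAT box and 0 a TATA box. A match of letters is not a site that was shown to be used. On the X chromosome lay 2 of the 10 members and 3.01% of the tested genes, with medians of -0.79 for Sham and -0.80 for PM offspring on the log2 scale.

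The genes whose pattern over the 23 libraries was most like the mean of the members were Gm21985 (r = 0.998), Dst (0.996), Tnks (0.996), Syde2 (0.995) and Dpp8 (0.993). The libraries share the OVA and saline split, so r is high for any gene that changed strongly, and these values are a description. Dst, which encodes the cytolinker dystonin, has 41155 exonic bases and went from 182 ± 62.0 RPM in Sham to 14.6 ± 2.39 RPM in Sham-OVA. In Sham offspring the log2 fold change was -4.75 ± 0.32 (SE) for Gm21985, -4.99 ± 0.26 for Syde2 and -3.54 ± 0.23 for Dst. It was smaller for Dpp8, at -1.94 ± 0.18, and for Tnks, which encodes the poly-ADP-ribosylating enzyme tankyrase, at -1.30 ± 0.12. The genes most alike in pattern thus differed in the size of their fall. Among the members themselves, the correlation with the mean profile was lowest for Snrk (0.889) and Dstn (0.896) and highest for Ston1 (0.992).

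Genes related to the members in function were taken from 8 lists with 129 tested genes, none of them a member. In Sham offspring 70 were called lower and 28 higher, and in PM offspring 74 and 28, where limma called 47.5% and 45.2% of all genes lower and 20.6% and 20.1% higher. Their median log2 fold change was -0.64 and -0.65, against -0.48 and -0.43 over all genes. These counts depended on the scaling. With quantile normalisation the calls were 57 lower and 41 higher in Sham and 59 and 42 in PM offspring, and over all genes the share of calls that were lower went from 69.8% to 51.5% in Sham and from 69.2% to 50.7% in PM offspring, while the median of all genes went from -0.48 to -0.05 and from -0.43 to -0.02.

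Close relatives of the members had smaller fold changes than the members. The choice of the members by the size of their falls favours this, so nothing is read from the difference, which was not tested. Atp7b, the copper pump best known from liver, had a log2 fold change of -2.39 ± 0.41 (SE) in Sham and -1.46 ± 0.25 in PM offspring, and the adaptor Ston2 one of -1.31 ± 0.17 and -1.33 ± 0.22. For the Rap activator Rapgef6 it was -1.51 ± 0.21 and -1.52 ± 0.23. The RNA-binding Khdrbs1, of the same family as Qk, came nearest to its relative, with -2.72 ± 0.24 and -2.39 ± 0.44. Each of these 4 passed the test in both cohorts. Sik1, a kinase of the family of Snrk, was at -1.24 ± 0.19 and -0.78 ± 0.27, with adjusted p = 0.0205 by limma in PM offspring, a call that was lost under quantile normalisation (adjusted p = 0.115) and without PM-OVA replicate 4 (-0.55). Of the cofilins, which act on actin as Dstn does, Cfl2 fell by 2.01 and 1.86 on the log2 scale, and Cfl1 was at -0.21 ± 0.32 and 0.04 ± 0.23 without passing the test, with a sign in Sham offspring that turned to 0.28 under quantile normalisation. Cfl1 had only 6.70 ± 1.12 RPM in Sham although it is abundant in most cells. Near-identical copies of it exist in the genome, how reads shared with copies were counted is not given in the sources used here, and its value is uncertain.

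Of the 18 genes of Rap signalling 13 were called lower and 0 higher in each cohort, with Rap2a, a Rap GTPase, at -2.99 ± 0.41 and -3.07 ± 0.58 and Sipa1, which switches Rap off, least lowered of those called, at -0.37 ± 0.13 and -0.39 ± 0.14, calls that were lost under quantile normalisation (-0.09 in each cohort) and whose sign turned with edgeR in Sham and DESeq2 in PM offspring. Under quantile normalisation 11 and 12 of them were lower and 1 higher. Of the 18 AMPK-related kinases and their partners 12 were lower and 2 higher in Sham and 13 and 4 in PM offspring. The lowest called in both was Cab39, a partner of the upstream kinase LKB1, at -2.22 ± 0.33 and -2.19 ± 0.39, and the highest Melk, a kinase of dividing cells, at 2.31 ± 0.28 and 0.99 ± 0.35, the latter no longer called without PM-OVA replicate 1, 2 or 4 (0.81, 0.94 and 0.97). Of 19 genes of actin turnover 13 and 12 were lower and 4 and 4 higher, from Actg1 (gamma actin) at -3.28 ± 0.25 and -2.63 ± 0.35 to the actin monomer binder Twf2 at 1.70 ± 0.15 and 1.72 ± 0.27. Actg1 was measured at 5.18 ± 1.89 RPM in Sham, and its value is uncertain for the reason given for Cfl1.

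Of the 16 genes of the copper list 6 were called lower and 8 higher in each cohort, and the highest was Mt1, a metallothionein that binds copper and zinc, which went from 38.8 ± 19.5 RPM in Sham to 405 ± 292 RPM in Sham-OVA, a log2 fold change of 3.27 ± 0.36 (SE) compared with 3.15 ± 0.46 in PM offspring. The clathrin list had 5 lower and 6 higher of 17 in Sham and 6 and 6 in PM offspring. Ap2s1, the small subunit of the AP-2 adaptor, stood at 2.74 ± 0.21 and 2.30 ± 0.32, and Fcho2, which starts clathrin pits, at -1.86 ± 0.26 and -1.62 ± 0.18. Of 18 deubiquitinases 10 and 11 were lower and 3 and 3 higher, from Usp33 at -1.89 ± 0.34 and -1.81 ± 0.38 to Otub1 at 1.27 ± 0.15 and 1.17 ± 0.18. Of 15 tested genes of STAR and splicing RNA-binding proteins 8 and 10 were lower and 2 and 1 higher, the highest called in both being the branch point binder Sf1 at 0.44 ± 0.12 and 0.48 ± 0.12. In the list of c-Maf and its partners, 8 genes, 3 and 3 were lower and 3 and 2 higher, with the kinase subunit Pik3r1 at -1.97 ± 0.29 and -2.27 ± 0.44.

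**Figure D5:**
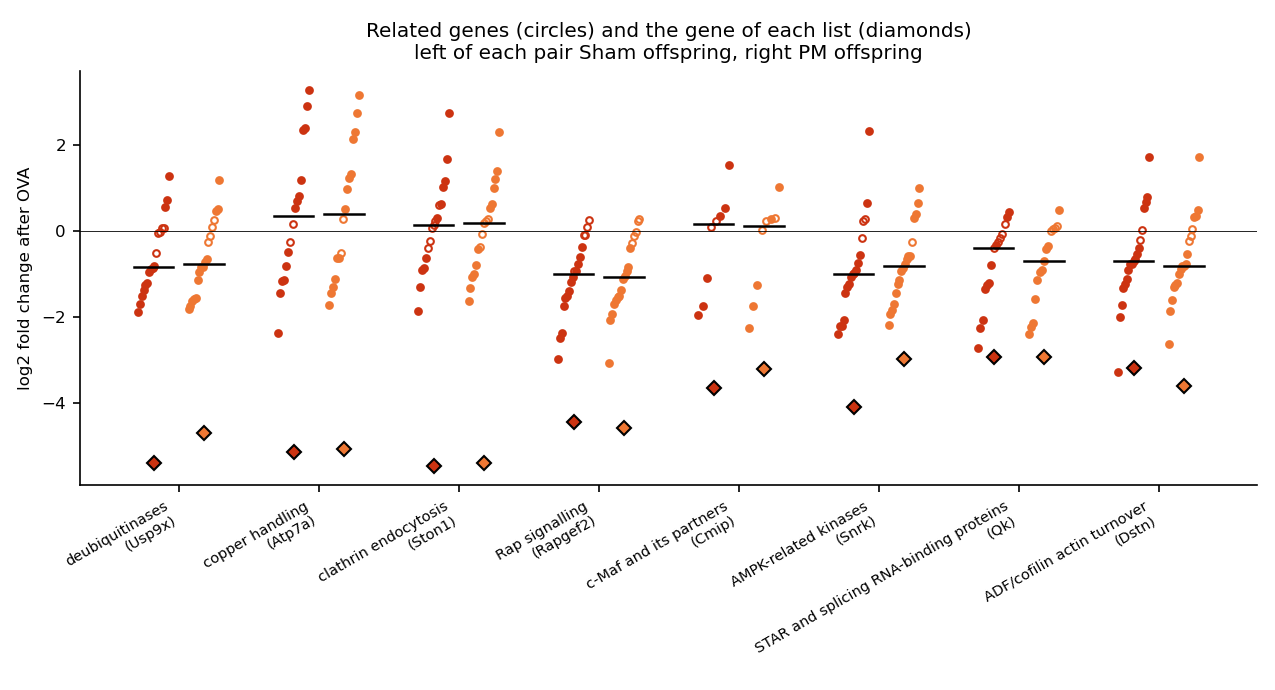
Log2 fold change after OVA (y) of the genes of 8 lists (x), with Sham offspring on the left and PM offspring on the right of each pair. Filled circles passed the test, open circles did not, black lines are medians, and diamonds show the member to which the list belongs. The diamond lies below every gene of its list except for Dstn in Sham offspring, which lies above Actg1. The members were chosen by their falls, so nothing is read from these positions.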

How the data were processed

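PolyA RNA of 23 lungs was sequenced by the study from a stranded library kit. The authors aligned the reads to GRCm38 by Bowtie2 after a Trimmomatic step, and SeqMonk served to quantify genes. The methods of the study name Ensembl genes. The annotation release, use of strand in counting, handling of overlapping genes, and removal of duplicates are not given in the sources used here. The table deposited by the authors is named RPKM, but its values are RPM per gene and library: every value was a whole multiple of what 1 read is worth in its library (100% of values within 0.02 of a read), with no scaling by length. Whole reads were recovered from these steps, and depth was taken from them.

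Tested were the 16795 of 35322 genes that reached 0.5 RPM in 4 or more libraries. log2(RPM + 0.5) values were fitted with limma 3.58.1 (R 4.3.3, trend, 2 groups at a time, two-sided), p-values were adjusted by the Benjamini-Hochberg method over all genes tested, and a gene was called at an adjusted p under 0.05. Confidence intervals are 95%. Exact permutation tests went through every split of the libraries, and exact intervals of pooled reads were computed with scipy 1.17.1. Intervals and floors from reads cover counting error only, since reads are not independent molecules. Alternatives were pseudocounts of 0.1 and 1, other filters, quantile and median-of-ratios scaling, 1 common depth and removal of the length trend. Further alternatives were count tests of the recovered reads by edgeR 4.0.16 and DESeq2 1.42.0, a replicate block and leaving out each library. The stricter threshold of the study was applied to the limma fit. One alternative, leaving out the 3 shallowest libraries, was chosen after seeing the data. The fit was tested on simulated data first.

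The 10 genes, the related gene lists and the marker lists were chosen with earlier results of these data known. The related genes named are close relatives of the members and, per list, the highest and lowest called in both cohorts, of which 1 is not reported here. The other genes named are the 3 lowest outside the group and the 3 nearest to the member with the smallest fitted fall. Also named are the 5 most alike by Pearson r over 23 libraries, and genes that share exons with a member. Lengths, UTRs and positions come from GENCODE vM21 (GRCm38), matched by symbol for 34158 genes, and promoter windows from RefSeq (GRCm38.p6). The labels give 1 animal per library, and animals that shared a dam are not told apart, so p-values measure the spread between these libraries. The methylation data of the study were not analysed here.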

Additional observations from a re-analysis of the deposited data

Results flagged for a closer look

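Within each group of 4, 5 or 7 libraries, the gap of the highest or lowest library to its neighbour was compared with Dixon's critical value for the 10 genes. Of 38 groups with any spread, 16 held a library that stood apart. A chance rate of about 1 in 20 groups holds for normally distributed values, and these are RPM, some of them near the floor. Where only 1 library of a group held any reads, it is flagged whatever its level, as for Gm43300 in Sham-OVA and PM-OVA. The genes were also chosen together, so the groups are not independent. The 16 groups are therefore a description and are not compared with that rate.

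PM-OVA replicate 1 was the high library in 6 of them. It held 12.4 RPM of Usp9x (next 1.59), 1.75 RPM of Atp7a (next 0.232), 8.0 RPM of Ston1 (next 0.618) and 22.1 RPM of Rapgef2 (next 3.40). It also held 15.1 RPM of Cmip (next 1.93) and 0.403 RPM of Gm43300 (others 0).

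PM replicate 5 was the low library for Atp7a (19.8 RPM, next 26.6), Rapgef2 (40.7 RPM, next 50.4), Cmip (16.5 RPM, next 21.2) and Qk (428 RPM, next 599). Sham replicate 3 was low for Qk (390.5 RPM, next 559.8), and Sham replicate 1 was high for Snrk (118.7 RPM, next 68.0).

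Among Sham-OVA libraries, replicate 3 was listed at 0 RPM of Cmip (next 1.31) and was high for Snrk (15.5 RPM, next 3.07), replicate 5 was low for Ston1 (0.146 RPM, next 0.602), and replicate 4 held 0.0797 RPM of Gm43300, which is 1 read, where the others were at 0.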

How the results depend on the processing

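The falls of the 10 genes kept their direction in both cohorts under every alternative run, and 0 members were called between maternal groups under each of them. The median of the members in Sham offspring (-3.93) moved beyond the replicate spread to -4.64 with a pseudocount of 0.1 (-4.76 from -3.53 in PM offspring), -5.00 with DESeq2 and -4.88 with edgeR. It ran from -4.09 to -3.78 as each library was left out, against -4.35 to -3.19 in PM offspring. Without the 3 shallowest libraries the median in PM offspring was -2.84, a fit that keeps only replicates 1 and 2 of PM-OVA. In PM offspring the log2 fold change was -3.87 for Rapgef2 and -2.70 for Dstn without PM-OVA replicate 3, and -3.87 for Rapgef2, -2.60 for Cmip and -3.0 for Dstn without PM-OVA replicate 4. Genes outside the group were also counted against the member with the smallest fitted fall in each setting. In the results as reported this was Gm38393 (620 genes), whose value is bounded by the pseudocount. They numbered 1611 with a pseudocount of 1, 966 with DESeq2 and 984 with edgeR, and 481 to 859 as each library was left out.

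The count of genes called higher depended on scaling and on the test, which DESeq2 and edgeR change together: over all genes 5484 in Sham and 5288 in PM offspring with quantile normalisation, 5362 and 5323 with DESeq2 and 5584 and 5120 with edgeR (3453 and 3379 as reported), and among related genes 45 and 45 with DESeq2 and 46 and 43 with edgeR (28 and 28). The share of calls that were lower was 56.6% and 55.3% with median-of-ratios scaling, 54.4% and 51.2% with DESeq2 and 50.4% and 49.9% with edgeR. At the threshold of the study (adjusted p under 0.000001 and a log2 change above 1) 4 related genes were lower and 3 higher in Sham offspring and 0 and 0 in PM offspring, and over all genes 425 and 333, and 4 and 44. Between PM-OVA and Sham-OVA 1 gene was called by DESeq2 and 1 with all 4 groups in one fit.

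The sample titles give same-numbered libraries no more than a shared number. Most OVA samples carry a different number in their library names, and PM-OVA replicate 4 is named Rel1 there. The correlation of their deviations was -0.101 to 0.116 between OVA and saline, -0.248 to 0.104 between PM and Sham, and 0.595, 0.220, 0.617 and -0.311 for numbers 1 to 4 between PM-OVA and Sham-OVA, so in no comparison did every pair deviate together. With the replicate block, related genes higher in PM offspring numbered 14, and the other counts stayed within 1.5 times those reported.

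Cfl1, which did not pass the test and ran from -0.40 to 0.18 in Sham offspring and from -0.12 to 0.19 in PM offspring as each library was left out, changed sign in Sham offspring with quantile normalisation (0.28), median-of-ratios scaling (0.11), DESeq2 (0.33), edgeR (0.39), and without the 3 shallowest libraries or Sham-OVA replicate 3 (0.18 each), and in PM offspring with the replicate block (-0.11), without the length trend (-0.16) and without PM replicate 6 (-0.02), PM-OVA replicate 1 (-0.04) or PM-OVA replicate 2 (-0.12). Of the genes named outside the group, in either cohort, calls were lost 52 times at the threshold of the study and 26 times elsewhere. Sipa1 changed sign in PM offspring with DESeq2 (0.0023) and in Sham offspring with edgeR (0.0789). The cause of these changes was not tested.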
